A study of Mus musculus with 18 samples.

Results

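The 10 genes described here are transcription factors of naive pluripotency, the state of mouse embryonic stem cells (ESCs) and of the inner cell mass: Nanog, Tfcp2l1, Esrrb, Klf2, Klf5, Tbx3, Nr5a2, Zfp42, Prdm14 and Nr0b1. They were taken by symbol from 22180 genes with a probe set on the array, and each of the 10 had 1 probe set. In the RefSeq annotation of GRCm38.p6 they lie on chromosomes 1 (Tfcp2l1, Nr5a2 and Prdm14), 5 (Tbx3), 6 (Nanog), 8 (Klf2 and Zfp42), 12 (Esrrb), 14 (Klf5) and X (Nr0b1). In mouse ESCs these factors bind one another's genes and those of Oct4 and Sox2, and most of them can be lost singly because others of the network compensate. The network is held up by the cytokine LIF acting through STAT3 and by inhibition of the kinase GSK3, which frees beta-catenin to relieve the repressor Tcf7l1 from target genes such as Esrrb, Klf2 and Tfcp2l1. In fibroblasts most of the network is silent, and its return marks the late, transgene-independent phase of reprogramming to induced pluripotent stem cells (iPSCs).

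The 250 bases upstream of the transcription start are printed for Nanog and Nr0b1, which were activated early in both arms, and for Zfp42, which was not activated with OKSM alone (RefSeq, GRCm38.p6, 5′ to 3′ on the strand of the gene). The windows lie at chr6:122707239-122707488, plus strand, for Nanog, at chr8:43307010-43307259, minus strand, for Zfp42 and at chrX:86191525-86191774, plus strand, for Nr0b1. Capitals mark 2 searched motifs, TTTGCAT, part of the octamer that Oct4 binds, and ACAATG, a Sox motif.
Nanog: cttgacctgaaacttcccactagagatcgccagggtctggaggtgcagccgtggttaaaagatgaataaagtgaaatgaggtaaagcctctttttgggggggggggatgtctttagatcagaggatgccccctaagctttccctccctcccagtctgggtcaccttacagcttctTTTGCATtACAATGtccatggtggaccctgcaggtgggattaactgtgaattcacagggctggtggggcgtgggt
Zfp42: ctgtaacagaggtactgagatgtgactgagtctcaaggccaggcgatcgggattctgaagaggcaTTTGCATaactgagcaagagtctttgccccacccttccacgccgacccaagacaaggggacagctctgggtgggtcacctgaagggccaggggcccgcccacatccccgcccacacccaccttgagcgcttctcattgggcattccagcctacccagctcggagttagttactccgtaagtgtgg
Nr0b1: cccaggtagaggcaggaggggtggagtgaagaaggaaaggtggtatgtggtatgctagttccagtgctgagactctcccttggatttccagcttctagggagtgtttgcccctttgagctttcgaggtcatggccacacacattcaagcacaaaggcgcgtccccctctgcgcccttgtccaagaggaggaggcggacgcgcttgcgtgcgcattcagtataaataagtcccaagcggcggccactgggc
In the Nanog window the octamer part began 75 bases before the start and the Sox motif 67 bases before it, so that 1 base lay between them. The Zfp42 window held the octamer part 185 bases before the start, and the Nr0b1 window held neither. Of the 10 genes, 7 had such a window, with 10 windows in all, and Klf5, Tbx3 and Prdm14 had none. Searched on both strands, TTTGCAT occurred in 3 of the 10 windows, all of Nanog or Zfp42, and in 4.12% of 32851 such windows of mouse genes. ACAATG occurred in 2 of the 10, both of Nanog, and in 10.7% of all. AAGGTCA, the motif of Esrrb and Nr5a2, occurred in 0 of the 10 windows and in 4.08% of all, and TTCCNGGAA, the motif of Stat3, in 0 of the 10 and in 0.913% of all. A match is a description of these letters and not a binding site.

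Expression was measured on 18 microarrays of cells of the Black6-129X1/SvJ strain. Bulk cultures of reprogrammable mouse embryonic fibroblasts (MEFs), whose inducible OKSM cassette carries Oct4, Klf4, Sox2 and Myc, were grown with AGi, which is ascorbic acid plus a GSK3 inhibitor (OKSM+AGi cultures), or with OKSM induction alone (OKSM cultures), and were taken on days 2, 4, 6, 8, 10 and 12. There was 1 array per arm and day, and 1 array each of Thy1-positive cells sorted on day 3 of OKSM, of uninduced reprogrammable MEFs, of iPSCs derived from fibroblasts by 96 hours of OKSM+AGi (Fibroblast-iPSC), of iPSCs derived from granulocyte-macrophage progenitors by 48 hours of it (GMP-iPSC), of the progenitors themselves (GMPs) and of wild-type ESCs. Both arms are labelled as expressing OKSM, so by label they differ in AGi, and no uninduced culture with AGi was analysed here. Because the cultures were bulk, more cells with a gene switched on and more RNA per cell cannot be told apart. No condition was repeated and nothing says that the days were separate cultures. Errors and p-values of the time course therefore rest on the spread between days, which may be technical, and not on replicates. For the difference between the arms over all days, this spread takes in growth of that difference with day, which widens the error. For slopes it takes in departures from a straight line.

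The labels were set against defining markers. Mpo and Elane, granule enzymes of myeloid progenitors, read 12.93 and 13.60 in GMPs on the log2 scale. Thy1 read 11.24 in the Thy1-sorted cells, against 10.83 and 10.36 in OKSM cultures of days 2 and 4. It read 11.63 in MEFs and 11.43, 11.53 and 11.17 in OKSM cultures of days 8, 10 and 12. The Thy1 value alone therefore does not set the sorted cells apart from those arrays. Sox2 read 12.19 in ESCs and 5.36 in MEFs. Of the induced factors, Klf4 alone was well above the MEF level (9.62) in all arrays of both arms, at 11.59 to 12.10 with AGi and 11.66 to 12.11 with OKSM alone. Myc read 8.59 to 9.11 with AGi and 9.64 to 10.22 with OKSM alone, below the MEF value of 11.40. Sox2 did not exceed 6.34 before day 12 in OKSM cultures. Pou5f1 read 6.998 to 7.79 with AGi and 7.10 to 7.35 with OKSM alone, against 6.80 in MEFs. It read no more than 8.13 in ESCs, so this probe set spans a small range even in pluripotent cells. These probe sets therefore do not show that the arms held equal amounts of the factors. Array medians lay between 6.32 and 6.46. The 18 hybridisation control probe sets, whose targets are added after labelling, all had a higher mean in the OKSM+AGi arrays, by 0.06 to 0.26 log2. The files hold no detection calls, so whether a low value lies above background is unknown. Levels of different members are set against each other only as shares of their own ESC level. Days of activation, differences and slopes are compared in log2, where ESC minus MEF ran from 1.51 (Tbx3) to 6.55 (Nr0b1). A fixed log2 step is thus a larger part of that distance for Tbx3 than for Nr0b1.

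The time courses are given first as order and day. A gene was called activated on the first day from which it stayed at least 1 log2 above the MEF array. In OKSM+AGi cultures Tfcp2l1 reached this on day 2, Nanog and Nr0b1 on day 4, Nr5a2 on day 6, Zfp42 on day 8, Esrrb and Prdm14 on day 10, and Klf2, Klf5 and Tbx3 on day 12. In OKSM cultures Nr0b1 reached it on day 4, Nanog on day 6, Nr5a2 on day 10 and Tfcp2l1 on day 12, and the other 6 genes did not reach it by day 12. By day 6 the count was thus 4 of 10 with AGi, where 2.78% of all genes were activated, and 2 of 10 with OKSM alone, where 2.2% were. By day 12 it was 10 of 10 with AGi (7.64% of all genes) and 4 of 10 with OKSM alone (5.04% of all genes). At a stricter level of 2 log2 the counts by day 6 were 2 with AGi (0.505% of all genes) and 1 with OKSM alone (0.482%), and by day 12 they were 9 with AGi (2.01% of all genes), without Klf5, and 4 with OKSM alone (1.24%). The order depended on the level: Tfcp2l1 with AGi moved to day 8 at 2 log2, after Nr0b1 on day 4 and Nanog on day 6, and likewise to day 8 at 50% of the log2 distance from MEF to ESC. At that distance 10 genes were activated by day 12 with AGi and 3 with OKSM alone, and the share of all genes there was not counted. After a second quantile normalization Nanog was activated on day 4 in OKSM cultures, the same day as with AGi. These days carry no error, since each rests on 1 array.

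**Figure D1:**
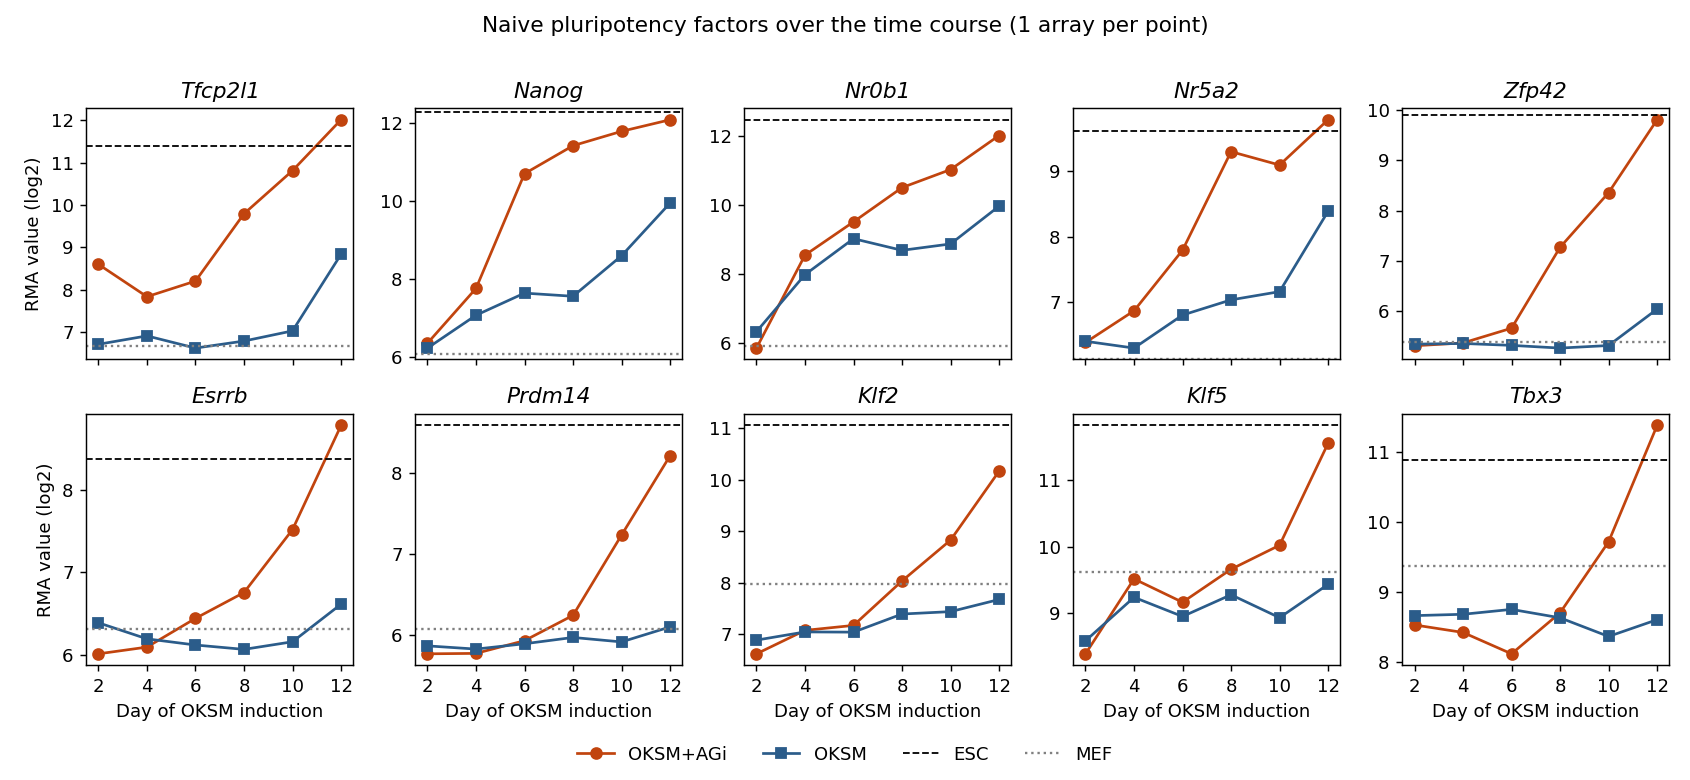
RMA value (log2, y axis) of each of the 10 factors by day of OKSM induction (x axis) in OKSM+AGi cultures (circles) and OKSM cultures (squares), with the levels of the ESC array (dashed) and the MEF array (dotted). Each point is 1 array. By day 12 all 10 genes with AGi were at least 1 log2 above MEF, against 4 of 10 with OKSM alone.

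Nanog, the homeodomain factor that stabilises the network, read 6.36, 7.76, 10.70, 11.41, 11.78 and 12.08 log2 on days 2 to 12 of OKSM+AGi. In OKSM cultures it read 6.24, 7.08, 7.64, 7.56, 8.60 and 9.95 on the same days. MEFs read 6.09 and ESCs 12.26. With AGi the largest step, 2.94 log2, came between days 4 and 6, whereas with OKSM alone it was 1.35 between days 10 and 12. From day 6 on the OKSM+AGi cultures were above the highest OKSM value, and no other of the 10 genes showed that before day 8. Over all 6 days Nanog was higher with AGi by 2.17 ± 0.48 log2 (limma with day as a block, SE, adjusted p = 0.0146), and it was higher on 6 of 6 days. Without day 10 the adjusted p was 0.0521, and tested against the largest hybridisation control difference it was 0.0531.

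Tfcp2l1, a grainyhead-family factor downstream of both STAT3 and beta-catenin, differed from the other genes in its first value. In OKSM+AGi cultures it read 8.60, 7.83, 8.20, 9.79, 10.81 and 12.02 log2 on days 2 to 12. In OKSM cultures it read 6.71, 6.90, 6.62, 6.78, 7.02 and 8.83, with MEFs at 6.68 and ESCs at 11.39. The day 2 difference between the arms was 1.89 log2, and it lay between -0.48 and 0.12 for the other 9 genes. The arms did not overlap on days 2 to 10, since every OKSM+AGi value was above every OKSM value of those days; the OKSM value of day 12 was above the OKSM+AGi values of days 2, 4 and 6. The difference over all days was 2.40 ± 0.36 log2 (limma, SE, adjusted p = 0.00322). It was the only one of the 10 genes called from days 2, 4 and 6 alone (1.47 log2, adjusted p = 0.0191, where 3.25% of all genes were called higher), and it passed in each fit that left out 1 day (adjusted p 0.00506 to 0.0169). With day 2 of its own arm as the base, a reading added after seeing the data, Tfcp2l1 was activated on day 8 in OKSM+AGi cultures, because the level of day 2 was already high.

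Of the nuclear receptors, Nr0b1 (Dax1), an X-linked corepressor without a DNA-binding domain of the usual kind, stood at 5.85, 8.54, 9.50, 10.50, 11.02 and 12.00 log2 on days 2 to 12 with AGi. The OKSM values were 6.33, 7.98, 9.02, 8.68, 8.87 and 9.96, against 5.91 in MEFs and 12.46 in ESCs. Both arms took their largest step between days 2 and 4, of 2.69 log2 with AGi and 1.65 with OKSM alone. Their values overlapped on the early days and separated from day 8. The difference over all days was 1.10 ± 0.35 log2 (limma, SE, adjusted p = 0.0538), which does not pass. With genes of low value left out of the test the adjusted p was 0.0384, and without day 2, when AGi was the lower arm, it was 1.41 (adjusted p = 0.0110).

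Nr5a2 (Lrh-1), a receptor that can stand in for Oct4 in reprogramming of mouse fibroblasts, read 6.38, 6.86, 7.79, 9.30, 9.10 and 9.79 log2 with AGi. With OKSM alone it read 6.40, 6.29, 6.80, 7.03, 7.16 and 8.39, and the MEF and ESC arrays read 6.12 and 9.61. Its day 2 values in the arms differed by -0.02 log2, and its difference was largest on day 8, at 2.27. Nr5a2 was higher with AGi by 1.19 ± 0.28 log2 (limma, SE, adjusted p = 0.0180) and on 5 of 6 days. The adjusted p was 0.0529 without day 8 and 0.0599 without day 10.

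Esrrb, the receptor that beta-catenin derepresses through Tcf7l1, was among the late genes. It stood at 6.01, 6.09, 6.44, 6.75, 7.52 and 8.78 log2 in OKSM+AGi cultures. In OKSM cultures it stood at 6.39, 6.19, 6.12, 6.06, 6.16 and 6.61, near the MEF value of 6.31, and ESCs read 8.38. With AGi it was the lower of the arms on days 2 and 4. The difference over all days, 0.68 ± 0.31 log2 (limma, SE, adjusted p = 0.164), did not pass.

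The Krüppel-like factors Klf2 and Klf5, which share targets with Klf4 in ESCs, were below the MEF level on day 2 in both arms. Klf2 read 6.62, 7.08, 7.17, 8.04, 8.83 and 10.16 log2 with AGi and 6.89, 7.05, 7.04, 7.39, 7.44 and 7.68 with OKSM alone. The MEF value was 7.98 and the ESC value 11.05, so that no OKSM culture reached the MEF level and OKSM+AGi cultures passed it from day 8. Klf5, which read 9.62 in MEFs and 11.82 in ESCs, had 8.39, 9.52, 9.17, 9.66, 10.02 and 11.55 with AGi. Its OKSM values were 8.59, 9.24, 8.95, 9.28, 8.94 and 9.44, all below MEF. Tbx3, a T-box factor that sustains Nanog in mouse ESCs, behaved likewise from a MEF level of 9.38. It read 8.53, 8.42, 8.11, 8.70, 9.72 and 11.39 with AGi and 8.66, 8.68, 8.75, 8.63, 8.36 and 8.60 with OKSM alone, with ESCs at 10.89. On day 2 these 3 genes were below MEFs by 0.85 to 1.36 log2 with AGi and by 0.71 to 1.09 with OKSM alone, and in the Thy1-sorted cells of day 3 by 0.66 to 0.70. Klf2 and Klf5 were at least 1 log2 below MEFs in both arms, where 2.9% of all genes were with AGi and 2.23% with OKSM alone. Counted from day 2 of their own arm instead of from MEFs, Klf2 and Klf5 were activated on day 8 with AGi and Tbx3 on day 10.

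Zfp42 (Rex1), a zinc-finger protein used as a reporter of the naive state, stayed near the MEF level through day 4 in both arms. In OKSM+AGi cultures it read 5.31, 5.37, 5.66, 7.27, 8.36 and 9.80 log2. In OKSM cultures it read 5.35, 5.36, 5.32, 5.27, 5.32 and 6.04, where only day 12 was above the MEF value of 5.39; ESCs read 9.89. Its difference between the arms on day 12, 3.76 log2, was the largest of the 10 genes on that day. Prdm14, which represses FGF signalling and DNA methylation genes in mouse ESCs, read 5.77, 5.78, 5.93, 6.25, 7.23 and 8.21 with AGi. With OKSM alone its 6 values lay between 5.83 and 6.10, against 6.07 in MEFs and 8.58 in ESCs. Over all days neither Zfp42 (1.52 ± 0.53 log2, limma adjusted p = 0.0778) nor Prdm14 (0.60 ± 0.30, adjusted p = 0.198) passed. Prdm14 was the 1 gene of the 10 that reached its array's median on fewer than 3 arrays of the time course.

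The comparison of the arms over all 6 days thus called 3 of 10 genes higher with AGi, and no estimate was below 0, where 11.8% of all 22180 genes were called higher and 11.9% lower. The median difference over the 10 genes was 0.92 log2, against -0.0019 over all genes. Klf2 (0.73 ± 0.34 log2, adjusted p = 0.165), Klf5 (0.65 ± 0.27, adjusted p = 0.132) and Tbx3 (0.53 ± 0.42, adjusted p = 0.432) did not pass. From days 8, 10 and 12 alone, 8 of 10 were called (9.28% of all genes were called higher), with differences of 1.19 log2 for Klf5 (adjusted p = 0.0474) to 3.33 for Tfcp2l1 (adjusted p = 0.000807). Tbx3 (1.40 log2, adjusted p = 0.0969) and Prdm14 (1.23, adjusted p = 0.0502) were the exceptions. On these late days the arms did not overlap for any of the 10 genes, OKSM+AGi being above OKSM throughout, and 19.1% of all genes showed the same. From days 2, 4 and 6 alone, 4 genes had differences below 0: Esrrb (-0.05), Klf2 (-0.03), Prdm14 (-0.04) and Tbx3 (-0.34), none of which passed.

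**Figure D2:**
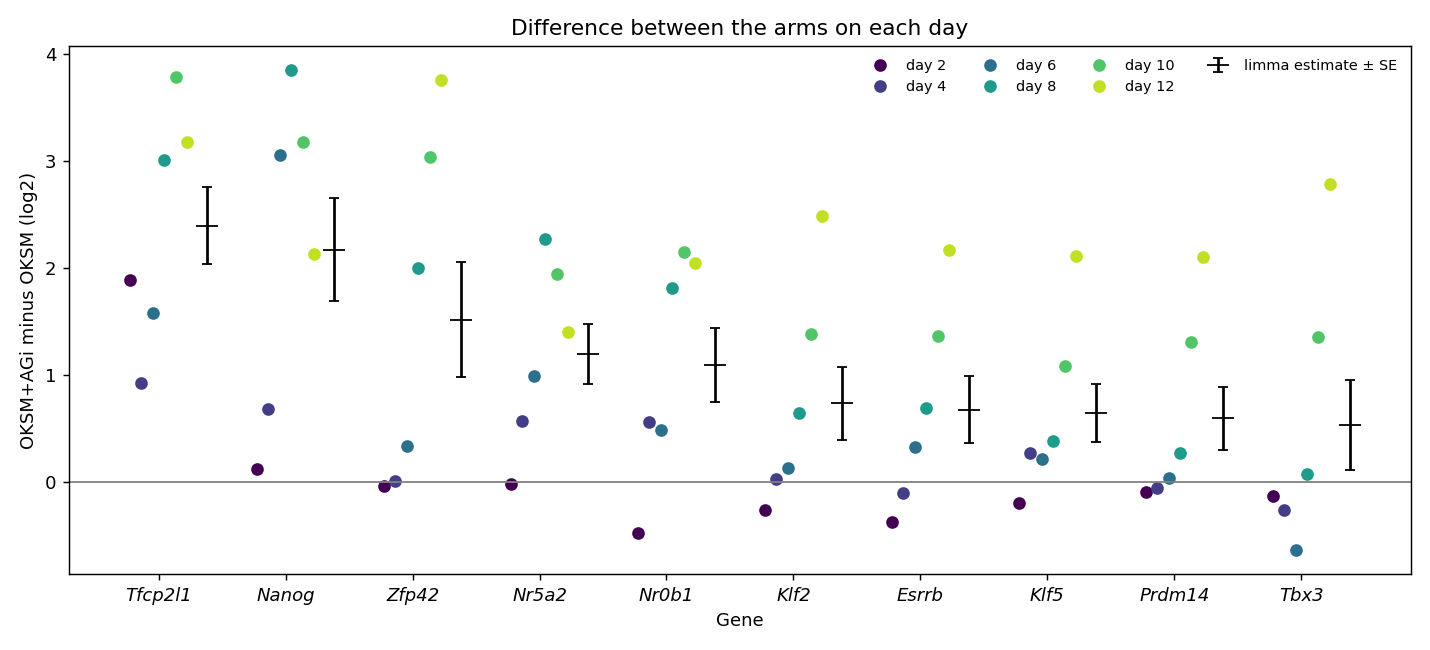
OKSM+AGi minus OKSM (log2, y axis) on each of 6 days for the 10 genes (x axis), 1 pair of arrays per point, with the limma estimate over all days and its SE as a bar. Tfcp2l1 and Nanog were above 0 on 6 of 6 days, Tbx3 on 3 of 6.

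Whether the arms drew apart was tested by setting the late days' difference against the early days' difference. It was larger on the late days for Zfp42 by 2.83 ± 0.39 log2 (limma, SE, adjusted p = 0.0313), for Tfcp2l1 by 1.86 ± 0.28 (adjusted p = 0.0355) and for Nr0b1 by 1.81 ± 0.27 (adjusted p = 0.0335). These were 3 of 10 genes, where 0.293% of all genes were called in that direction and 0.852% in the other. Nanog, whose arms had separated by day 6, gave 1.77 ± 0.75 (adjusted p = 0.317). These calls depended on single days. Tfcp2l1 passed only with day 8 left out (1.59 to 2.07, adjusted p 0.0308 to 0.149 over the days left out), Zfp42 did not pass without day 2, 4, 6 or 10 (2.41 to 3.29, adjusted p 0.00445 to 0.149), and Nr0b1 did not without day 4, 6, 10 or 12 (1.48 to 2.00, adjusted p 0.0361 to 0.158). Without day 8, 7 of the 10 genes were called, where 0.888% of all genes were.

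Slopes over day gave a second view. In OKSM+AGi cultures all 10 genes rose with day, where 7.24% of all genes rose and 5.51% fell, at 0.24 ± 0.03 log2 per day for Prdm14 (limma, SE, adjusted p = 0.00139) to 0.59 ± 0.08 for Nanog (adjusted p = 0.000761). Without day 12, Tfcp2l1 (0.32, adjusted p = 0.0536), Klf5 (0.17, adjusted p = 0.0649) and Tbx3 (0.13, adjusted p = 0.185) no longer passed. In OKSM cultures Nanog (0.33 ± 0.08 per day, adjusted p = 0.0317), Nr0b1 (0.29 ± 0.07, adjusted p = 0.0295) and Nr5a2 (0.18 ± 0.04, adjusted p = 0.0266) rose, 3 of 10, where 3% of all genes rose and 2.3% fell. None of these 3 passed without day 4, 10 or 12, the adjusted p reaching 0.119 for Nanog, 0.126 for Nr0b1 and 0.191 for Nr5a2.

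The slope was steeper with AGi for Zfp42 by 0.42 ± 0.07 log2 per day (limma, SE, adjusted p = 0.0121), for Klf2 by 0.26 ± 0.04 (adjusted p = 0.0154), for Esrrb by 0.25 ± 0.05 (adjusted p = 0.0312) and for Prdm14 by 0.22 ± 0.05 (adjusted p = 0.0446). They are 4 of 10, where 1.06% of all genes were called steeper and 0.685% less steep. All 4 belong to the 6 genes that were not activated in OKSM cultures. Slope and activation use the same OKSM values, so this overlap is not a separate result. With day as a replicate block 6 of 10 passed, Klf5 (adjusted p = 0.0203) and Nr0b1 (adjusted p = 0.0102) being added. The calls over all 22180 genes rose too, to 536 steeper and 503 less steep, from 235 and 152 without the block. None of the 4 passed without day 4 or day 10, and without day 12 Esrrb alone did; over the days left out the adjusted p reached 0.0760 for Zfp42, 0.0767 for Klf2, 0.138 for Esrrb and 0.189 for Prdm14. Nanog's slopes differed by 0.26 ± 0.11 (adjusted p = 0.278), a difference as large as that of Klf2 with a wider error.

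**Figure D3:**
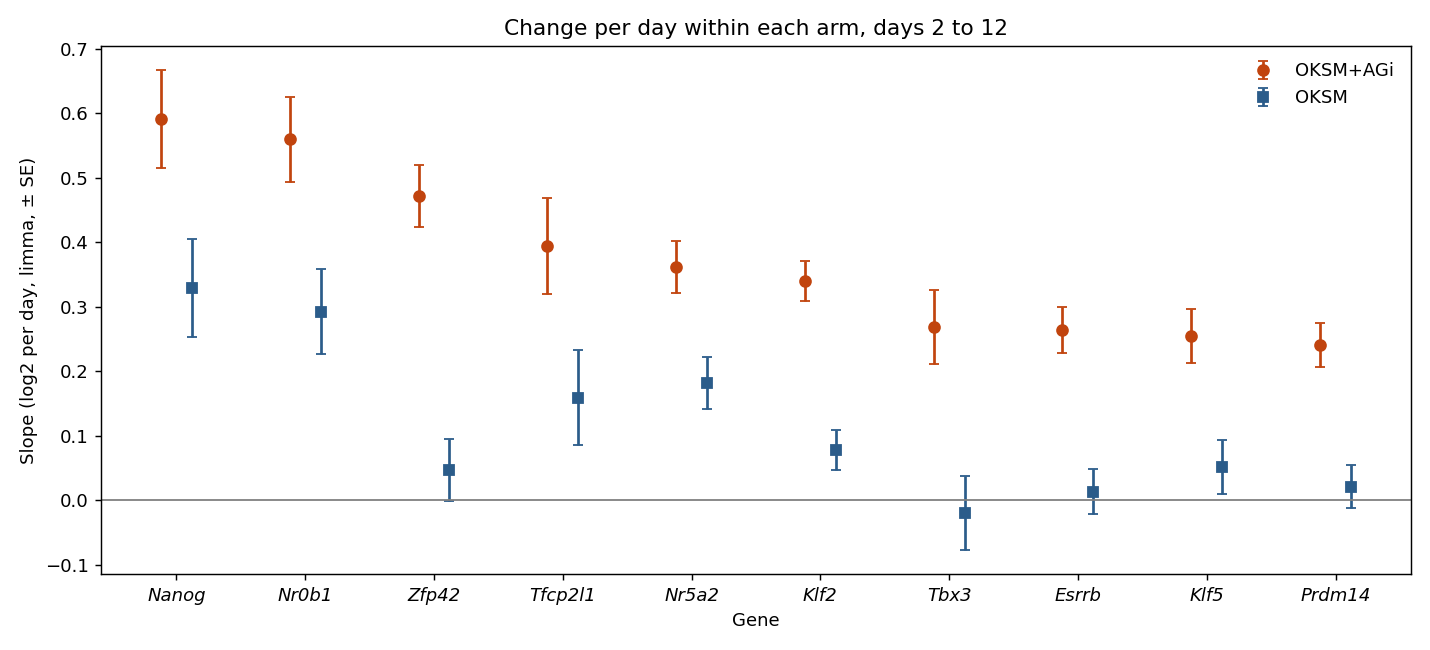
Change per day (log2 per day, y axis; limma estimate with its SE) of the 10 genes (x axis) over days 2 to 12 in OKSM+AGi cultures (circles) and OKSM cultures (squares). All slopes with AGi lie between 0.24 and 0.59; with OKSM alone Nanog has the highest, 0.33, and Tbx3 the lowest, -0.02.

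Set against the ESC array on the linear scale, the median share of the 10 genes in OKSM+AGi cultures was 9.97%, 11.4%, 15.3%, 24.0%, 41.9% and 91.0% of the ESC level on days 2 to 12. In OKSM cultures it was 8.14%, 8.13%, 11.5%, 12.2%, 10.9% and 18.6%. MEFs stood at 10.4%, with single genes from 1.07% (Nr0b1) to 35.1% (Tbx3), which marks the level these probe sets show before induction. With the MEF level subtracted from both sides, the median on day 12 was 90.8% with AGi and 4.97% with OKSM alone. Without that subtraction, all 10 genes were above 50% of ESCs with AGi on day 12, the lowest being Klf2 at 54.1%. Tfcp2l1 (155%), Tbx3, Esrrb and Nr5a2 were above 100%. With OKSM alone none reached 50%, the highest being Nr5a2 at 42.8% and the lowest Zfp42 at 6.94%. The share of all genes at 50% or 100% of ESCs was not counted. Over the 3 pluripotent arrays the median share of the 10 genes had an SD of 20.6 percentage points. The OKSM+AGi cultures were above the OKSM day 12 level from day 6 on for Nanog and from day 8 on for the other 9 genes, and on days 8 to 12 30.3% of all genes were.

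**Figure D4:**
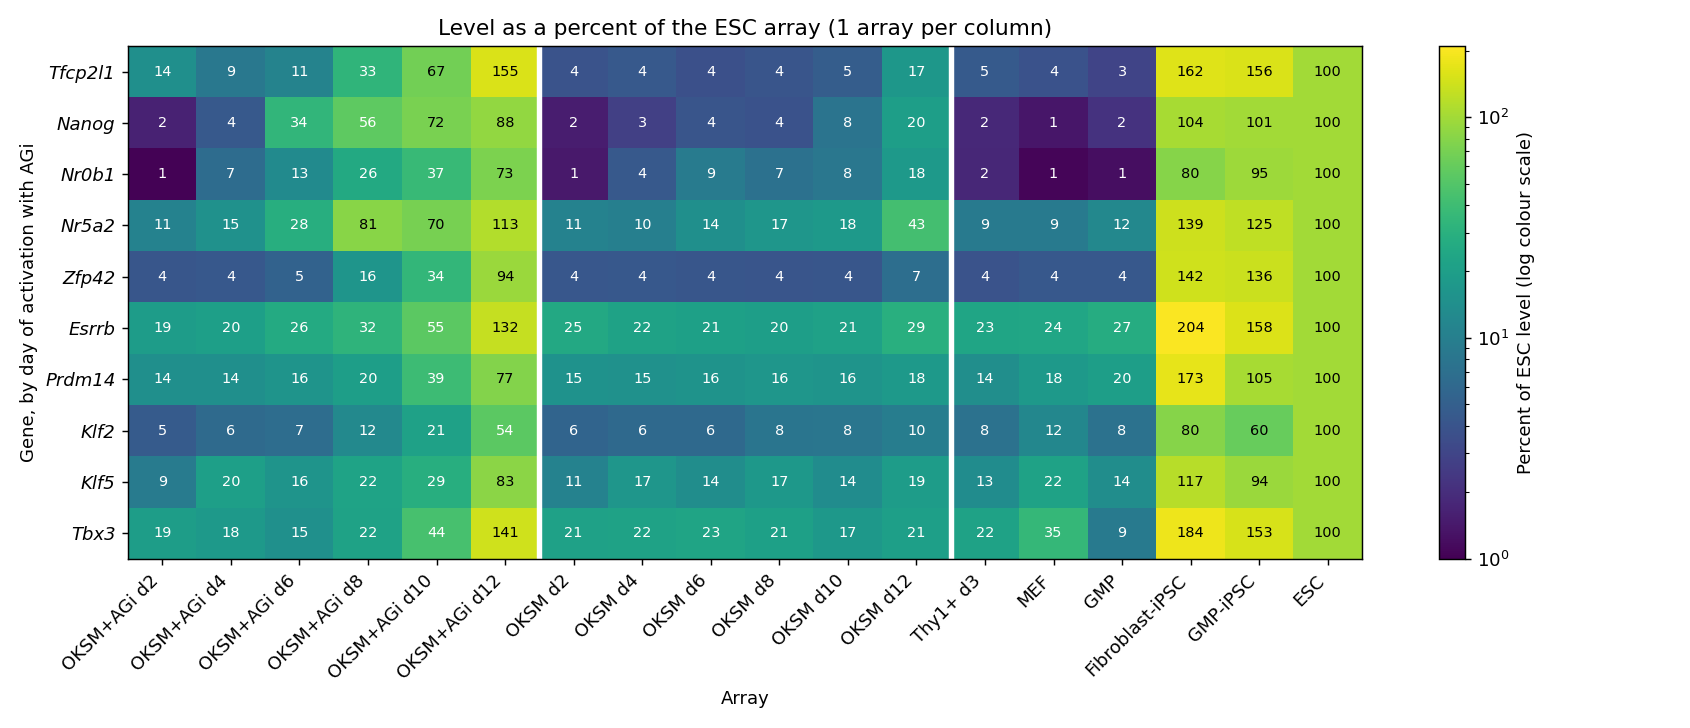
Level of each gene (rows, by day of activation with AGi) as a percent of the ESC array on the linear scale (colour, log scale; numbers in the cells) in each of the 18 arrays (columns). The OKSM+AGi columns reach a median of 91.0% on day 12, the OKSM columns 18.6%.

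The iPSC lines read above the ESC array for 8 of 10 genes in Fibroblast-iPSC and for 7 of 10 in GMP-iPSC. The share of all genes above the ESC array was not counted. The differences of the 10 genes from ESCs ran from -0.33 to 1.03 log2 in Fibroblast-iPSC and from -0.74 to 0.66 in GMP-iPSC. In Fibroblast-iPSC the median share was 141% of ESC and in GMP-iPSC 115%. Nanog was nearly equal in the 3 pluripotent arrays, at 12.32 in Fibroblast-iPSC, 12.27 in GMP-iPSC and 12.26 log2 in ESCs. Esrrb differed most, with 9.40 in Fibroblast-iPSC and 9.04 in GMP-iPSC against 8.38 in ESCs. Its 1.03 log2 in Fibroblast-iPSC was the only difference of at least 1 log2 among the 10 genes (1.68% of all genes were that much higher and 1.06% lower), and after a second quantile normalization it fell under 1. In GMP-iPSC 0 of 10 differed by that much (0.604% of all genes were higher and 0.766% lower). Klf2 was lower in both lines, at 10.72 in Fibroblast-iPSC and 10.31 in GMP-iPSC, against 11.05 in ESCs. Day 12 OKSM+AGi cultures differed from ESCs by -0.89 (Klf2) to 0.63 (Tfcp2l1), so that 0 of 10 genes differed by 1 log2, where 5.43% of all genes were that much higher and 2.11% lower. Of the 10 genes, Tfcp2l1, Esrrb, Tbx3 and Nr5a2, 4 in all, lay within the range of the 3 pluripotent arrays. The other 6 were below that range by 0.09 to 0.37 log2. These are single arrays, and their differences have no test.

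Thy1-sorted cells of day 3, labelled as refractory, showed 0 of 10 genes at least 1 log2 from MEFs (2.58% of all genes were higher by that much and 2.31% lower). Nr0b1 read 6.69 in them, between the OKSM values of 6.33 on day 2 and 7.98 on day 4, and Nanog read 6.51, against 6.24 and 7.08. In GMPs the 10 genes had a median of 8.32% of the ESC level. Tbx3 alone differed from MEFs by at least 1 log2, at 7.42 in GMPs against 9.38 in MEFs (8.49% of all genes were that much lower and 7.42% higher).

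Genes around the network were counted in the same fit of all 6 days, where 11.8% of all genes were called higher and 11.9% lower. Of 18 pluripotency-associated genes outside the 10, 12 were higher with AGi and 0 lower, with a median difference of 1.02 log2; Zfp296, a zinc-finger partner of the network, was higher by 2.15 ± 0.18 (limma, SE, adjusted p = 0.000716), and L1td1, Gdf3 and Rif1 by 0.77, 1.56 and 0.79. Of 5 core and reprogramming factors, Sox2 (2.07 ± 0.62, adjusted p = 0.0457) and Sall4 (1.61 ± 0.33, adjusted p = 0.0112) were higher and Myc (-1.09 ± 0.08, adjusted p = 0.000716) lower. Whether the probe sets of Sox2 and Myc read the cassette, the cells' own genes or both is not known from the files.

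Of 9 genes of the LIF and STAT3 pathway, 2 were higher and 2 lower. The ligand Lif (0.33 ± 0.08 log2) and the feedback inhibitor Socs3 (0.43 ± 0.13) were higher, and the receptor subunit Il6st (-0.71 ± 0.13) and the kinase Jak1 (-0.69 ± 0.10) lower. Of 6 genes of the GSK3 and beta-catenin branch, the target genes Axin2 (0.92 ± 0.14) and Lef1 (1.17 ± 0.25) were higher and the repressor Tcf7l1 (-0.63 ± 0.07, limma adjusted p = 0.0014) and Tcf7l2 (-0.66 ± 0.16) lower. Axin2 and Lef1 were higher on 6 of 6 days, and Tcf7l1 lower on 6 of 6.

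Of 9 genes of the formative and primed epiblast, the later states of pluripotency, 0 were higher and 2 lower: the POU factor Pou3f1 (-0.99 ± 0.23 log2, limma, SE) and the DNA methyltransferase Dnmt3a (-0.37 ± 0.06). Fgf5, a marker of the primed state, gave -1.02 ± 0.33 (adjusted p = 0.0606). Over all genes 11.8% were called higher and 11.9% lower, so with 9 genes these counts are near those shares. By slope over day, 4 of the 9 genes rose with AGi (7.24% of all genes) and 3 with OKSM alone (3%), and 0 fell in either arm. Relatives of the Klf and receptor members were counted too. Of 14 other Klf genes 0 were higher and 4 lower, Klf7 by -0.74 ± 0.09, and of 10 other orphan nuclear receptors Nr6a1, the germ cell nuclear factor, was higher (0.38 ± 0.08) and 4 were lower.

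Markers of some other cell states moved with the arm. Of 10 epithelial markers 7 were higher with AGi and 0 lower, and their summed linear level ranged from 1174 to 10807 in OKSM+AGi cultures and from 1411 to 2926 in OKSM cultures, against 1287 in MEFs and 10242 in ESCs. Cdh1 was higher by 2.10 ± 0.40 and Epcam by 2.40 ± 0.47 log2 (limma, SE). Of 10 fibroblast markers 9 were lower with AGi and 0 higher. Their sum was 7032 to 14994 with AGi and 13207 to 21916 with OKSM alone, and on day 12 it was 11336 with AGi, against 27821 in MEFs and 2969 in ESCs. Germ cell markers, some shared with naive cells, had 2 of 7 higher and a sum of up to 3121 with AGi and 783 with OKSM alone. Endoderm markers summed to 693 to 843 with AGi and 819 to 915 with OKSM alone (1 of 7 lower). Trophoblast markers summed to 740 to 1180 and 789 to 907 (1 of 8 higher), and both counts were near the shares of all genes. Of 6 endothelial markers 3 were lower. Macrophage and myeloid progenitor markers each had 1 of 8 higher and 1 lower, near the shares of all genes. But 3 of 8 macrophage markers had a lower difference on the late than on the early days, where 0.852% of all genes did. The macrophage markers summed to 1283 to 4127 with AGi and 1120 to 4325 with OKSM alone. In both arms this sum was lowest on day 4 and highest on day 12. With AGi the day 12 sum was mostly Cd68, which read 11.77 log2 there, against 10.58 with OKSM alone and 10.78 in ESCs. Every other macrophage marker read lower with AGi than with OKSM alone on day 12. The sum with AGi therefore does not show a day 12 peak of these markers as a set. Without detection calls no marker can be placed at 0, and the part of these markers in the results on the 10 genes was not tested. Tested against the largest hybridisation control difference in place of 0, Tfcp2l1 passed (limma adjusted p = 0.0124), and Nanog (adjusted p = 0.0531) and Nr5a2 (adjusted p = 0.0895) did not; for slopes and late against early days the part of that difference was not tested.

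The 10 genes were also compared by the shape of their time courses, as a description over the 12 arrays, which share day and arm. Among 45 pairs Pearson's r ran from 0.55 (Nanog with Tbx3) to 0.98 (Esrrb with Prdm14), with a median of 0.88. In the 6 OKSM+AGi arrays the median was 0.91 and in the 6 OKSM arrays 0.65, where the pairs ran from -0.54 (Klf2 with Tbx3) to 0.98 (Tfcp2l1 with Zfp42). Of 1910 genes with an SD of at least 0.5 over the 12 arrays, the time course most like that of Nanog was Utf1 (r = 0.99), which was also closest to Nr5a2 (0.98). Gdf3 was closest to Tfcp2l1 (0.97), Spint1 to Nr0b1 (0.95), and Inhbb to both Klf2 (0.98) and Klf5 (0.95). Esrrb was most like Rasgrp4 (0.99), Prdm14 like Lrrc34 (0.996), Zfp42 like Platr10 (0.99) and Tbx3 like Hsf2bp (0.98).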

How the data were processed

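Biotin-labelled total RNA was hybridised to mouse arrays. The authors deposited RMA values on the log2 scale, 1 per probe set, from Affymetrix Expression Console, according to the submitters' processing notes; versions, settings, scan dates and the genome build were not given in the sources used here. Of 41345 probe sets, 23521 carried a single gene symbol, 1814 carried several, 15820 carried none and 190 were controls. The RefSeq table (GRCm38.p6) updated symbols by gene ID, with 193 old ones kept, and each of 22180 genes took its brightest probe set by mean over all 18 arrays. No sample column was left unused (0).

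The R package limma 3.58.1 (R 4.3.3; lmFit, eBayes, p-values adjusted by Benjamini-Hochberg over all genes, threshold 0.05) was applied to 12 time-course arrays with no filter on low values, so that all 10 members were tested alike. Of them 9 would pass a filter at the array median on at least 3 arrays. The arms share the day by label, so the AGi difference had day as a block (5 residual degrees of freedom; 4 for late against early days); slopes had arm, day and their product (8). Other arrays were compared by size only, with 1 log2 counted. The fits were tested on simulated data first. The members, lists, designs and alternatives were chosen with earlier results of these data known. Named genes are the 10 members, up to 4 of each list by lowest p for the AGi difference, and for each member its closest genes by Pearson's r. The number of arrays limits the precision. Plots used matplotlib 3.10.9 (Python 3.11.15).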

Additional observations from a re-analysis of the deposited data

Results flagged for a closer look

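In the OKSM arm 2 values stood far from the other days of their gene. Tfcp2l1 read 8.83 log2 on day 12, against 6.62 to 7.02 on the other 5 days, and Zfp42 read 6.04 on day 12, against 5.27 to 5.36. They were 2 of 30 series looked at, which are the levels in each arm and the differences between the arms for each of the 10 genes; chance alone marks about 1 in 20, and in a time course the last day may lie apart because the level changes with day.

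The change per day differed between OKSM+AGi and OKSM cultures for 4 genes: Zfp42 (0.42 ± 0.07 log2 per day, limma adjusted p = 0.0121), Klf2 (0.26 ± 0.04, adjusted p = 0.0154), Esrrb (0.25 ± 0.05, adjusted p = 0.0312) and Prdm14 (0.22 ± 0.05, adjusted p = 0.0446). The difference between the arms was larger on days 8 to 12 than on days 2 to 6 for 3 genes: Zfp42 (by 2.83 ± 0.39 log2, limma adjusted p = 0.0313), Nr0b1 (by 1.81 ± 0.27, adjusted p = 0.0335) and Tfcp2l1 (by 1.86 ± 0.28, adjusted p = 0.0355).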

How the results depend on the processing

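Of the 10 genes, 3 were called higher with AGi, where 2615 of 22180 genes were. From days 2, 4 and 6 only, 1 was called (721 of all genes), and from days 8, 10 and 12 only, 8 (2058). Tested against the largest hybridisation control difference, 1 was called (359 of all genes). With genes of low value left out of the test 4 were called, where 2722 of 13865 genes were. When a day was left out, 1 to 4 were called (1438 to 2757 of all genes). With no replicate block, 1 was called (Tfcp2l1, limma adjusted p = 0.0282), against 3 with the day block that pairs the arms. Over all genes 1906 were called higher with no block, against 2615 with it. For the slope difference, 4 were called without the block (235 of all genes steeper), 6 with it (536) and 0 to 5 without 1 day (44 to 231). For the late against early days 3 were called (65 of all genes higher) and 0 to 7 without 1 day (1 to 197). For slopes with AGi the counts were 10 (1606 of all genes rising) and 7 to 10 (561 to 2096). For slopes with OKSM alone they were 3 (665) and 0 to 2 (161 to 967). From days 2, 4 and 6 only the differences of Esrrb (-0.051), Klf2 (-0.035), Tbx3 (-0.34) and Prdm14 (-0.037) reversed, and without day 12 the OKSM slopes of Esrrb (-0.029; -0.029 to 0.044 over the days left out) and Zfp42 (-0.0073; -0.0073 to 0.068). Activation by day 6 counted 4 genes with AGi (2.78% of all genes) and 2 with OKSM alone (2.2%). At 2 log2 above MEF it counted 2 (0.505% of all genes) and 1 (0.482%). At 50% of the log2 distance to ESC it counted 2 and 0, and the share of all genes there was not counted. After a second quantile normalization 0 genes of Fibroblast-iPSC differed by 1 log2 from ESC. As percent of the log2 distance from MEF to ESC, the median on day 8 was 31.6 with AGi and -3.31 with OKSM alone. Prdm14 has no value under the low-value filter, which it does not pass. Over all settings 475 single-gene values kept side and direction, 50 lost the call, 14 gained it and 6 reversed. Each gene has 1 probe set, so averaging probe sets moves only the other genes. The cause of these changes was not tested.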
